A study of Mus musculus with 6 samples.

Results

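Actins and tropomyosins build the thin filament of muscle, and 10 mouse genes of this machinery were examined by gene symbol, out of 23284 symbols listed in each library. They are the 4 muscle actin genes Actc1, Acta1, Acta2 and Actg2, the tropomyosin genes Tpm1 and Tpm2, and the smooth muscle genes Tagln, Cnn1, Myh11 and Mylk. Whole hearts were taken at embryonic stage E13.5 from C57BL/6 mice, and polyadenylated RNA was sequenced. Tfam KO embryos had both alleles of Tfam floxed, and Control embryos had 1 floxed allele. Embryos of both groups also carried Cre from the Nkx2.5IRES-Cre/+ knock-in, which places Cre in 1 copy of the cardiac gene Nkx2-5, so that loss of Tfam is directed to the cardiac lineage and other cells of the heart may keep it. Each group had 3 libraries and each library pooled 5 hearts, so p-values describe the spread between pools. The comparison asks how these transcripts differ between hearts whose cardiac lineage can lose both alleles of Tfam through Cre and hearts where it can lose 1. Tfam encodes the main packaging and transcription factor of mitochondrial DNA.

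The thin filament is a polymer of actin along which tropomyosin lies, and in striated muscle tropomyosin moves with calcium to let myosin bind. The heart of the embryo expresses cardiac actin together with the skeletal and smooth muscle actins, and cardiomyocytes transiently carry several genes that later mark smooth muscle. Many of these genes are known targets of serum response factor (SRF), which binds a short DNA element called the CArG box and works with the coactivator myocardin. Smooth muscle contraction itself is switched on when myosin light chain kinase phosphorylates the myosin of the thick filament.

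The 6 libraries held 12370092 to 18078620 reads, as recovered from the steps of the deposited values, and 15586 to 16063 genes were above 0 in a library. The deposited values, log2(FPKM + 1), did not share a common scale. FPKM scales the reads of a gene by transcript length and by the library's total, and the share of reads on the ribosomal RNA precursor Rn45s ran from 15.0% to 31.2% in Tfam KO libraries and from 27.8% to 32.5% in Control libraries. Over all 10807 tested genes, the median of the log2 fold change, Tfam KO over Control, was 0.28 as deposited and 0.01 once size factors (for each library, the median ratio of its genes to their geometric means over the 6 libraries) put the libraries on a common scale. Fold changes of the examined genes are therefore given on both scales. Values of related genes and markers are mostly given with size factors only. Tfam stood at 3.97, 4.77 and 6.22 FPKM in Tfam KO hearts, against 4.64, 5.55 and 6.62 FPKM in Control hearts. The groups overlapped as deposited (adjusted p = 0.651, limma), and with size factors every Tfam KO library was below every Control library, at 71.4% of the Control mean (adjusted p = 0.152).

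The actin genes differ in the DNA before their start sites, and these stretches are shown because Acta1 and Acta2 had the lowest fold changes among the actins with size factors. Promoters came from RefSeq on build GRCm38.p6, and 7 of the 10 genes had an entry. The CArG box has 10 bases, with a core of A and T bases between CC and GG, and reads as the same pattern on both strands. Capitals mark boxes with at most 1 G or C in the core, in the 250 bases before the start site. The Actc1 stretch is chr2:114052876-114053125 and the Acta1 stretch is chr8:123894776-123895025, both on the minus strand and written 5′ to 3′. For Acta2, 217 of the 250 bases lie in an exon annotated as UTR, so only 30 bases around each box are shown, chr19:34255438-34255467 for the upstream and chr19:34255388-34255417 for the downstream box, both on the minus strand.
Actc1: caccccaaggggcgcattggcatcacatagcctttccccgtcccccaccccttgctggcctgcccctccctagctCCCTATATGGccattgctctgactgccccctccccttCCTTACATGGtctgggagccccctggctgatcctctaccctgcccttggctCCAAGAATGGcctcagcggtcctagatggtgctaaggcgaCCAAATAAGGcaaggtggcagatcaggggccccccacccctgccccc
Acta1: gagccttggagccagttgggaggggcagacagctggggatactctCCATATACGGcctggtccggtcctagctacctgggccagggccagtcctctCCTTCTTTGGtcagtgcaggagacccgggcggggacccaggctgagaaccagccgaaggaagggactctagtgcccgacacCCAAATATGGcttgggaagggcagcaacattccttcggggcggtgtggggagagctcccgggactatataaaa
Acta2 upstream box: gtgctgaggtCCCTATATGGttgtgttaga
Acta2 downstream box: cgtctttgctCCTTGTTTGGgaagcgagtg

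Actc1 held 4 boxes, Acta1 held 3 and Acta2 held 2. An exact box, with no G or C in the core, was found once in Actc1, at -47 to -38 from the start site, and once in Acta1, at -73 to -64. For Acta1 the bases just after the RefSeq start were in 0 of the gene's GENCODE transcripts. Its positions therefore rest on the RefSeq start alone. The Acta2 boxes lay at -84 to -75 and at -34 to -25, and neither was exact. Both lie inside the annotated gene, chr19:34240336-34255585, and so after its outermost start. The windows of Tpm1, Tpm2, Cnn1 and Mylk held none by this pattern, which says only that these letters are not in these 250 bases. The Tpm1 window, chr9:67049214-67049463, lies inside the annotated gene, chr9:67022590-67049672. The Mylk window, chr16:34784700-34784949, lies inside the gene at chr16:34745199-35002436. For both genes the bases before the outermost start were not searched. Of 32851 promoter entries, 8.59% held a box with at most 1 G or C, 1.47% held an exact one and 0.67% held more than 1 box. A match is a description of the letters and not a binding site.

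Levels of the 10 genes spanned 4 orders of magnitude on the FPKM scale, which is per length and allows genes to be compared. Actc1, cardiac actin, averaged 4367 FPKM over the 6 libraries, Tpm1 averaged 796 FPKM and Acta2, smooth muscle alpha-actin, averaged 282 FPKM. These 3 genes did not overlap with each other or with the next gene in the order. Tpm2 at 36.2 FPKM, Acta1 at 33.0 FPKM, Tagln at 27.1 FPKM and Cnn1 at 24.8 FPKM overlapped from neighbour to neighbour. Actg2 and Mylk, at means of 1.606 and 1.605 FPKM, overlapped with each other. Myh11, at 0.307 FPKM, was the lowest and fell below the filter of a mean of 1 FPKM, so 9 of the 10 genes entered the test.

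**Figure D1:**
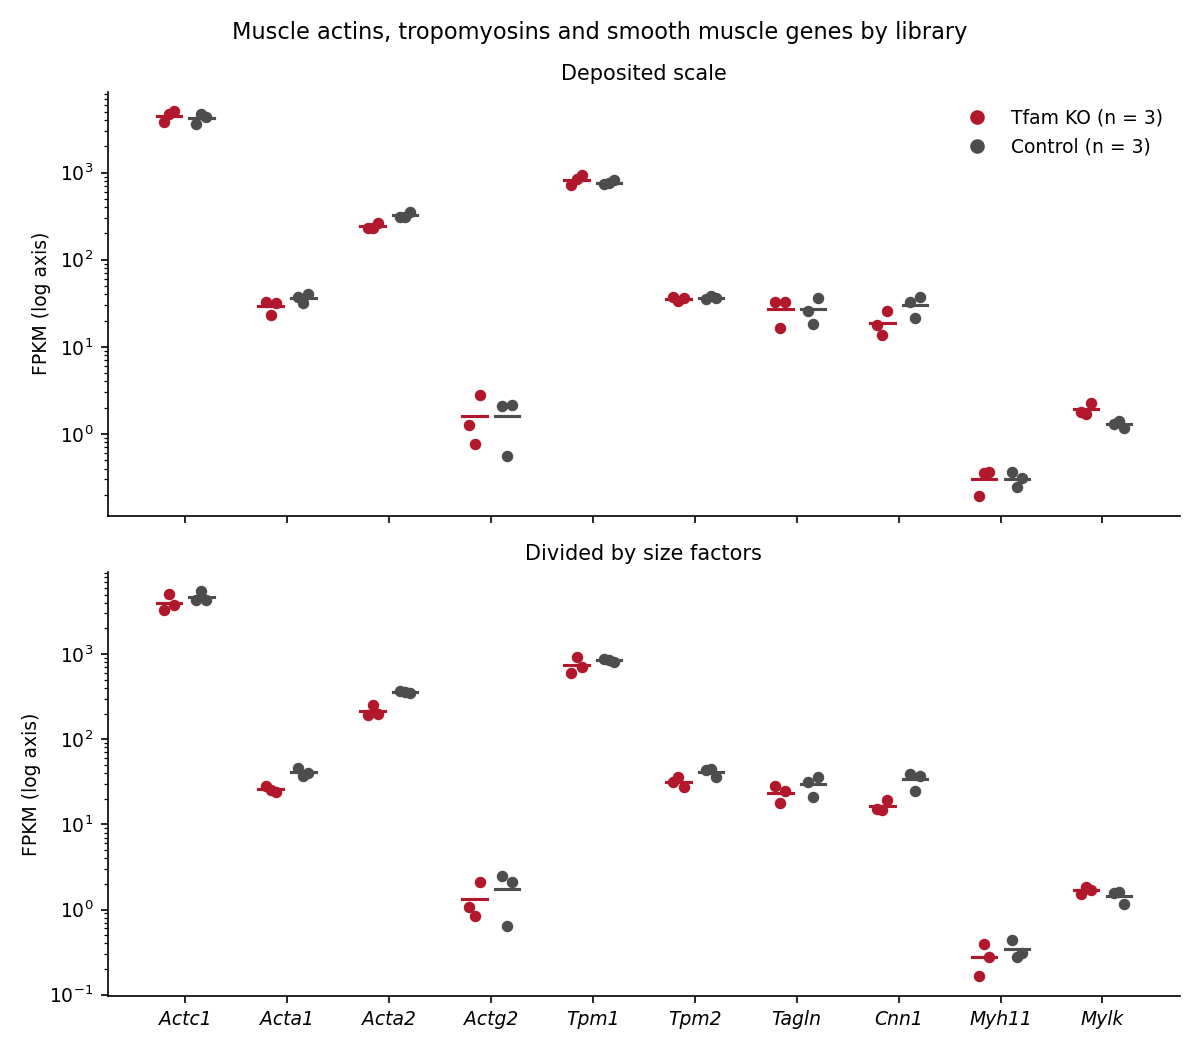
FPKM of the 10 genes in each library (points, log axis), Tfam KO left of Control, with the group mean as a line, as deposited (top) and divided by size factors (bottom). With size factors, Acta1, Acta2 and Cnn1 show every Tfam KO point below every Control point.

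As deposited, 0 of the 9 tested genes were called higher and 0 lower (limma, Benjamini-Hochberg adjusted p under 0.05). Among all tested genes, 6.21% were called higher and 1.16% lower. With no adjustment of p, 1 of the 9 genes, Cnn1, passed 0.05 as lower and 0 as higher, where 2.53% of all tested genes did as lower and 23.3% as higher. With size factors, 3 of the 9 genes were lower, Acta1, Acta2 and Cnn1, and 0 were higher, where 2.5% of all tested genes were lower and 2.07% higher. The same count of 3 lower and 0 higher came from limma-voom on the recovered reads, with 4.06% of all tested genes lower and 2.69% higher. The median log2 fold change of the 9 genes was 0.01 as deposited and -0.30 with size factors, against 0.28 and 0.01 over all tested genes. With size factors 8 of the 9 values were negative, as were 48.0% of all tested genes, and as deposited 8 of the 9 lay under the median of all genes.

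**Figure D2:**
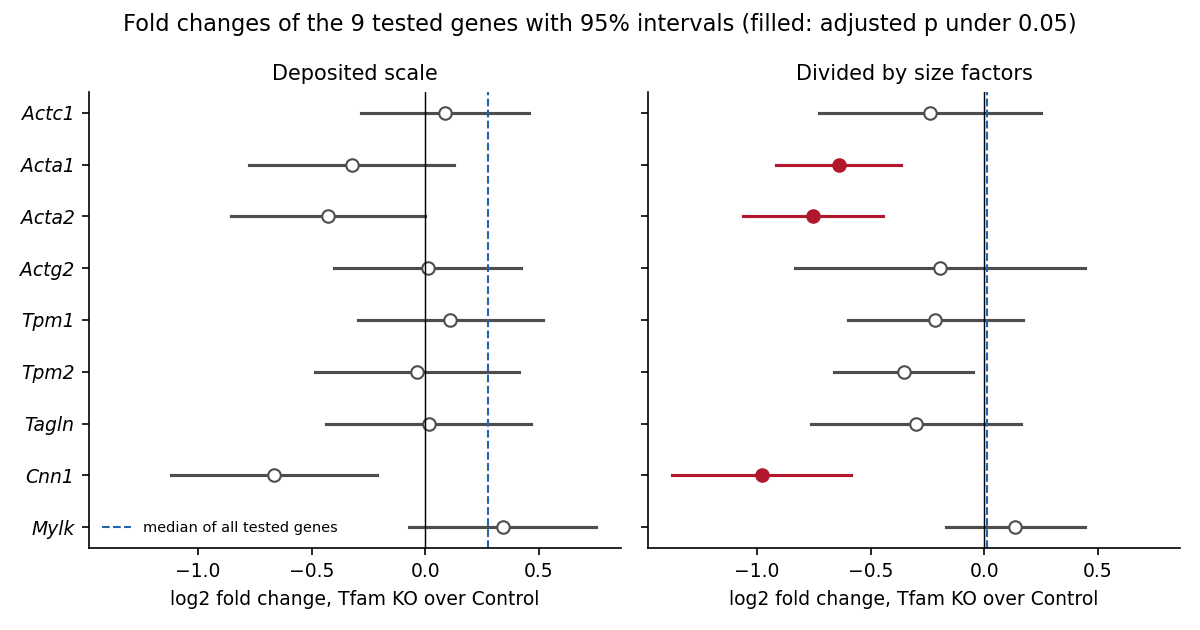
Log2 fold changes of the 9 tested genes, Tfam KO over Control, with 95% intervals from limma, as deposited (left) and with size factors (right). Filled points have an adjusted p under 0.05, and the dashed line is the median of all tested genes. Mylk alone lies above that median on both scales.

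Acta2 encodes the alpha-actin of smooth muscle, which embryonic cardiomyocytes also express. It stood at 228, 230.0 and 263 FPKM in Tfam KO hearts, against 306, 312 and 352 FPKM in Control hearts. Every Tfam KO library was below every Control library as deposited, as was true of 2.34% of tested genes, and Acta2 was the only one of the 9 genes with that order. The log2 fold change as deposited was -0.43 ± 0.22 (SE, adjusted p = 0.194). Divided by size factors, Acta2 stood at 195, 249 and 198 FPKM in Tfam KO hearts and at 370.0, 359 and 348 FPKM in Control hearts. The groups stayed apart, the Tfam KO mean was 59.6% of the Control mean, and the log2 fold change was -0.75 ± 0.14 (SE, adjusted p = 0.0116, 95% interval -1.06 to -0.45). In these whole hearts, fewer cells of a type and less RNA per cell cannot be told apart, here and for all genes that follow.

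Acta1, skeletal alpha-actin, is co-expressed with cardiac actin in the embryonic heart. It stood at 32.9, 23.2 and 32.0 FPKM in Tfam KO hearts, against 37.8, 32.2 and 40.1 FPKM in Control hearts. The groups overlapped only in that the highest Tfam KO library passed the lowest Control library, and the log2 fold change was -0.32 ± 0.23 (SE, adjusted p = 0.332). With size factors Acta1 stood at 28.1, 25.1 and 24.1 FPKM in Tfam KO hearts, against 45.6, 37.1 and 39.7 FPKM in Control hearts. No libraries overlapped, the Tfam KO mean was 63.1% of the Control mean, and the log2 fold change was -0.64 ± 0.12 (SE, adjusted p = 0.0144, 95% interval -0.91 to -0.37). Of the 50-base stretches of the Acta1 transcript, 2.22% were identical to other genes' transcripts, so reads there could be assigned to either. For Acta2 the share was 0.352%, and for Actc1 and Actg2 it was 0, although the coding sequences of the 4 muscle actins are 82.5% to 86.2% identical.

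Actc1 is the main sarcomeric actin of the heart. It stood at 3809, 4642 and 5050 FPKM in Tfam KO hearts, against 3587, 4735 and 4382 FPKM in Control hearts. The groups overlapped on both scales. Its log2 fold change was 0.09 ± 0.19 as deposited (SE, adjusted p = 0.750) and -0.24 ± 0.22 with size factors (SE, adjusted p = 0.614, 95% interval -0.73 to 0.25). That interval includes a decrease of the size seen for Acta1. Actg2, the gamma-actin of enteric smooth muscle, stood at 1.27, 0.771 and 2.82 FPKM in Tfam KO hearts, against 2.07, 0.553 and 2.15 FPKM in Control hearts. These values rest on 14 to 62 reads in Tfam KO libraries and on 9 to 51 reads in Control libraries, and the groups overlapped on both scales. The log2 fold change of Actg2 was 0.01 ± 0.21 as deposited and -0.19 ± 0.29 with size factors (SE, adjusted p = 0.775), and no difference was detectable at this depth.

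Shares within a library do not depend on the library's scale. Actc1 made up 93.6%, 94.8% and 94.4% of the summed FPKM of the 4 muscle actins in Tfam KO hearts, against 91.2%, 93.2% and 91.7% in Control hearts. Acta2 made up 5.61%, 4.70% and 4.92% in Tfam KO hearts, against 7.79%, 6.14% and 7.38% in Control hearts. The Tfam KO libraries were all higher in the share of the cardiac isoform and all lower in that of the smooth muscle isoform. The 4 shares of a library add up to its whole, so a lower Acta2 share largely fixes a higher Actc1 share. The Actc1 order is therefore not a separate result. The mean share of Acta2 was 5.08% ± 0.474 in Tfam KO hearts and 7.10% ± 0.857 in Control hearts (SD, n = 3 each). Acta1 made up 0.807%, 0.474% and 0.598% in Tfam KO hearts, against 0.960%, 0.634% and 0.840% in Control hearts, and the groups overlapped. These ratios were chosen with earlier results known and got no test, since 3 libraries against 3 cannot give an exact two-sided permutation p below 0.1.

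**Figure D3:**
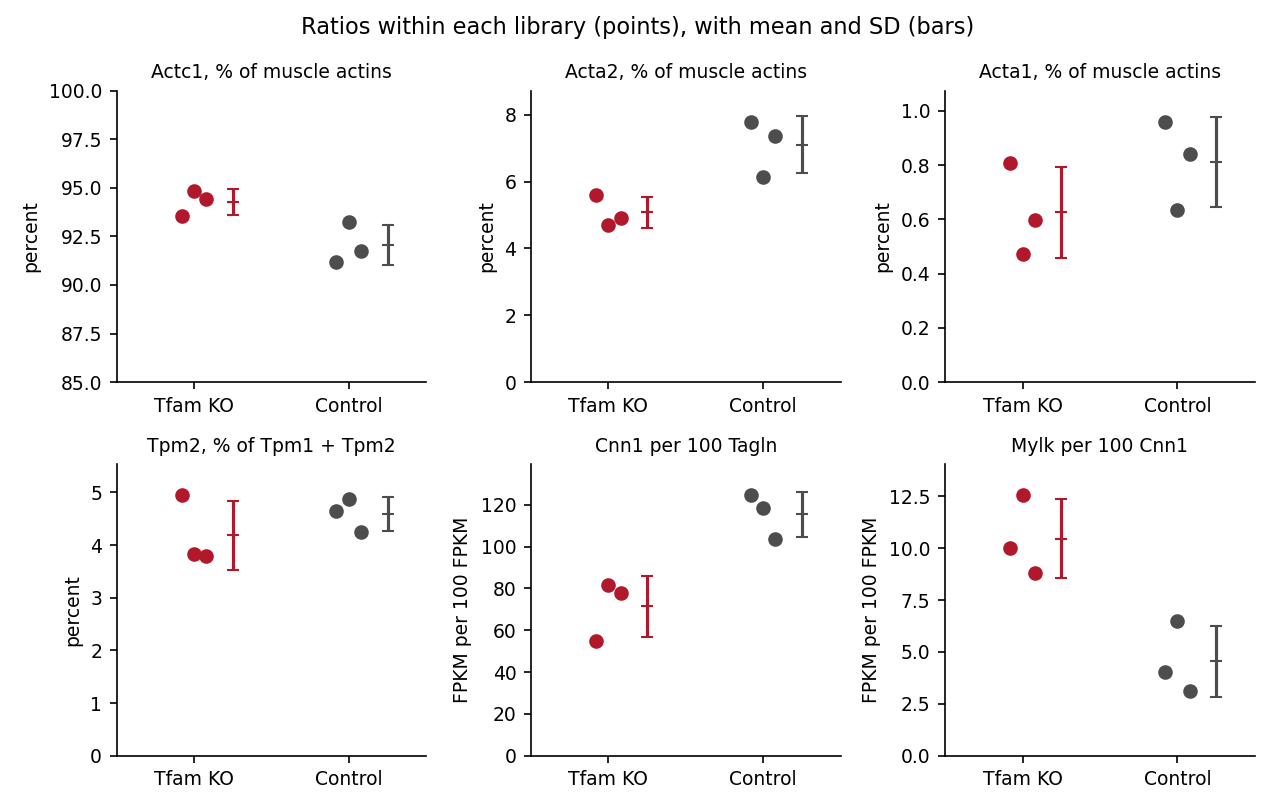
Ratios of FPKM within each library (points) with mean and SD (bars, n = 3 libraries a group), Tfam KO left of Control; the Actc1 axis starts at 85% and all others at 0. The groups do not overlap for the shares of Actc1 and Acta2, which largely mirror each other, for Cnn1 per 100 Tagln or for Mylk per 100 Cnn1.

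Tpm1 encodes the main tropomyosin of the cardiac thin filament and, by splicing, forms of smooth muscle and other cells that a gene-level value cannot separate. It stood at 712, 842 and 930.3 FPKM in Tfam KO hearts, against 729.95, 749 and 810.2 FPKM in Control hearts. The lowest library of all was a Tfam KO one, and the groups overlapped on both scales. The log2 fold change was 0.11 ± 0.21 as deposited (SE, adjusted p = 0.713) and -0.22 ± 0.17 with size factors (SE, adjusted p = 0.555). Per 100 FPKM of Actc1 there were 18.7, 18.1 and 18.4 FPKM of Tpm1 in Tfam KO hearts and 20.4, 15.8 and 18.5 in Control hearts, so the Tfam KO libraries lay inside the Control range.

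Tpm2, beta-tropomyosin, is a minor form in the heart. It stood at 37.0, 33.5 and 36.7 FPKM in Tfam KO hearts, against 35.6, 38.4 and 36.0 FPKM in Control hearts. The groups overlapped within a narrow range and the log2 fold change as deposited was -0.04 ± 0.23 (SE, adjusted p = 0.916). With size factors Tpm2 stood at 31.6, 36.3 and 27.6 FPKM in Tfam KO hearts, against 43.0, 44.2 and 35.6 FPKM in Control hearts. Only the highest Tfam KO library passed the lowest Control library, and the log2 fold change of -0.35 ± 0.14 missed the threshold after adjustment (SE, unadjusted p = 0.0276, adjusted p = 0.192). Tpm2 made up 4.95%, 3.82% and 3.80% of Tpm1 and Tpm2 together in Tfam KO hearts, against 4.65%, 4.88% and 4.25% in Control hearts, and the groups overlapped.

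Cnn1 encodes calponin, which binds actin and damps the myosin motor in smooth muscle. It stood at 18.0, 13.52 and 25.4 FPKM in Tfam KO hearts, against 32.3, 21.6 and 37.7 FPKM in Control hearts. Replicate 3 of Tfam KO passed replicate 2 of Control, the other Tfam KO libraries were below all Control libraries, and the log2 fold change was -0.67 ± 0.23 (SE, adjusted p = 0.0519). With size factors Cnn1 stood at 15.4, 14.7 and 19.1 FPKM in Tfam KO hearts, against 39.0, 24.9 and 37.2 FPKM in Control hearts. No libraries overlapped, the Tfam KO mean was 48.6% of the Control mean, and the log2 fold change was -0.98 ± 0.18 (SE, adjusted p = 0.0108, 95% interval -1.37 to -0.59). That value was the lowest of the 9 genes, and 0.916% of all tested genes had a log2 fold change as low or lower, where the shares at or below Acta2 and Acta1 were 2.02% and 3.17%.

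With size factors and a library left out, log2 fold changes ran from -1.18 to -0.86 for Cnn1, from -0.87 to -0.69 for Acta2 and from -0.71 to -0.56 for Acta1, while some calls were lost. Without replicate 3 of Control all 3 missed the threshold, at a log2 fold change of -0.90 and adjusted p = 0.0549 for Cnn1, -0.77 and 0.0518 for Acta2, and -0.66 and 0.0641 for Acta1 (limma). Acta1 also missed it without replicate 2 of Tfam KO (log2 fold change -0.63, adjusted p = 0.0604) or without replicate 1 of Control (-0.56, adjusted p = 0.0595), and leaving out each of the other 3 libraries kept all 3 calls. With size factors and no filter on low values Cnn1 missed the threshold at the same log2 fold change of -0.98 (adjusted p = 0.0513) while Acta1 and Acta2 passed. As deposited, Cnn1 passed it without replicate 3 of Tfam KO (adjusted p = 0.00450) or with only genes of at least 5 FPKM tested (adjusted p = 0.0426). With size factors, these 3 of the 9 tested genes had every Tfam KO library below every Control library, as did 11.6% of all tested genes, and 0 of the 9 had the opposite order, as did 12.5% of all tested genes.

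Tagln encodes transgelin (SM22-alpha), an actin-binding protein that appears early in smooth muscle and transiently in the embryonic heart. It stood at 32.8, 16.5 and 32.7 FPKM in Tfam KO hearts, against 25.9, 18.2 and 36.3 FPKM in Control hearts. The spread between libraries of a group was larger than the difference between groups. Its log2 fold change was 0.02 ± 0.23 as deposited (SE, adjusted p = 0.966) and -0.30 ± 0.21 with size factors (SE, adjusted p = 0.486). Calponin and transgelin are of related sequence, and Cnn1 per 100 FPKM of Tagln was 54.9, 81.8 and 77.7 in Tfam KO hearts, against 124.5, 118 and 103.6 in Control hearts. Every Tfam KO library was lower, and this ratio does not depend on the scale of a library. Per 100 FPKM of Acta2, in contrast, Cnn1 was at 7.89, 5.88 and 9.65 in Tfam KO hearts, against 10.5, 6.92 and 10.7 in Control hearts, and the groups overlapped.

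Mylk encodes myosin light chain kinase, including its long and smooth muscle forms, which the gene-level value adds up. It stood at 1.81, 1.70 and 2.24 FPKM in Tfam KO hearts, against 1.31, 1.40 and 1.18 FPKM in Control hearts. As deposited every Tfam KO library was above every Control library, as in 25.6% of all tested genes, and the log2 fold change was 0.34 ± 0.21 (SE, adjusted p = 0.271). With size factors the groups overlapped, at 1.54, 1.84 and 1.68 FPKM in Tfam KO hearts against 1.58, 1.61 and 1.17 FPKM in Control hearts (log2 fold change 0.14 ± 0.14, SE, adjusted p = 0.657). Mylk per 100 FPKM of Cnn1 was 10.03, 12.6 and 8.80 in Tfam KO hearts, against 4.04, 6.47 and 3.14 in Control hearts, and all Tfam KO libraries were higher. Cnn1 had the lowest fold change of the 9 genes, and per 100 FPKM of Tagln the groups overlapped, with Mylk at 5.51, 10.3 and 6.84 in Tfam KO hearts, against 5.03, 7.66 and 3.26 in Control hearts.

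Myh11, the heavy chain of smooth muscle myosin and a marker of mature smooth muscle, was scarcely detected. It stood at 0.192, 0.360 and 0.370 FPKM in Tfam KO hearts, against 0.368, 0.244 and 0.309 FPKM in Control hearts, from 16, 33 and 41 reads in Tfam KO libraries and 34, 20 and 37 reads in Control libraries. The groups overlapped. In a fit with no filter on low values its log2 fold change was close to 0 as deposited (adjusted p = 0.997) and -0.07 ± 0.0856 with size factors (SE, adjusted p = 0.751), so no difference was detectable at this depth.

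Genes related to these 10 were read from lists, with counts in the same fits. Of the 4 cytoplasmic actin and non-muscle tropomyosin genes (Actb, Actg1, Tpm3, Tpm4), 0 were called on either scale, and their median log2 fold change with size factors was 0.00. Actb, the cytoplasmic beta-actin, stood at 365, 420 and 438 FPKM with size factors in Tfam KO hearts, against 476, 340 and 373 FPKM in Control hearts, and the groups overlapped. Of 6 tested relatives of the calponin, transgelin, kinase and myosin genes, 0 were called on either scale, with a median of -0.09 with size factors. Of 17 tested genes for thin filament caps and actin turnover, 0 were called on either scale, with a median of -0.05 with size factors. Limma-voom on reads called 1 lower, Fhod3, an actin-assembling formin (adjusted p = 0.0258). With size factors every Tfam KO library was below every Control library for 5 of these 17 genes and above for 0. Among the 6 relatives it was below for 2 and above for 1, beside 11.6% and 12.5% of all tested genes.

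Of 25 other tested smooth muscle genes, 0 were called as deposited and 1 was lower with size factors, Synpo2, which encodes an actin-bundling protein of the Z-disc and smooth muscle. Synpo2 stood at 3.33, 3.24 and 3.13 FPKM with size factors in Tfam KO hearts, against 5.54, 4.68 and 5.89 FPKM in Control hearts, with no overlap (log2 fold change -0.59 ± 0.12, SE, adjusted p = 0.0242). Its call was lost without replicate 2 or 3 of Tfam KO, without replicate 1 or 3 of Control and with no filter, at log2 fold changes of -0.59 to -0.53 and adjusted p = 0.0667 to 0.127. Limma-voom on reads called Synpo2 and Pdlim7, a cytoskeletal PDZ-LIM protein, lower (adjusted p = 0.00378 and 0.0181). The median of the 25 genes was -0.08 with size factors. On that scale every Tfam KO library was below every Control library for 6 of them and above for 1. Over all tested genes the shares were 11.6% below and 12.5% above. Of 22 tested regulators around SRF, myocardin and TGF-beta, 0 were called as deposited and 2 were lower with size factors, Tgfb1 and Fhl2. Tgfb1, a ligand known to induce smooth muscle genes, stood at 6.53, 6.11 and 4.78 FPKM with size factors in Tfam KO hearts, against 12.2, 10.2 and 9.43 FPKM in Control hearts, with no overlap (log2 fold change -0.77 ± 0.14, SE, adjusted p = 0.0123). Fhl2, a LIM protein that binds SRF, stood at 24.1, 27.9 and 20.2 FPKM with size factors in Tfam KO hearts, against 34.8, 49.0 and 34.1 FPKM in Control hearts, also with no overlap (log2 fold change -0.68 ± 0.17, SE, adjusted p = 0.0496). The call of Fhl2 was lost in each of the 6 fits that left out a library (log2 fold change -0.79 to -0.51, adjusted p = 0.0572 to 0.148) and with no filter (adjusted p = 0.124), and that of Tgfb1 was kept in all of these.

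The factor SRF and its coactivator missed the threshold on both scales. As deposited the groups overlapped for both. The log2 fold change as deposited was -0.03 ± 0.23 for Srf (SE, adjusted p = 0.930, limma) and -0.14 ± 0.23 for Myocd (SE, adjusted p = 0.673, limma). With size factors Srf stood at 11.2, 12.3 and 8.56 FPKM in Tfam KO hearts, against 14.1, 12.7 and 14.0 FPKM in Control hearts (log2 fold change -0.33 ± 0.14, SE, adjusted p = 0.228). Myocd, which encodes myocardin, stood at 9.56, 11.4 and 10.7 FPKM with size factors in Tfam KO hearts, against 12.8, 15.0 and 16.4 FPKM in Control hearts (log2 fold change -0.44 ± 0.13, SE, adjusted p = 0.0835). For both, every Tfam KO library was below every Control library with size factors. The same held for Tgfb1, Fhl2 and Tgfbr2, so for 5 of the 22 regulators, beside 11.6% of all tested genes. On that scale 2 of the 22, Tead1 and Smad4, had every Tfam KO library higher, as had 12.5% of all tested genes. Limma-voom on reads called Myocd (adjusted p = 0.0445), Fhl2 and Tgfb1 lower, 3 of the 22. The median of the 22 regulators was -0.03 with size factors.

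**Figure D4:**
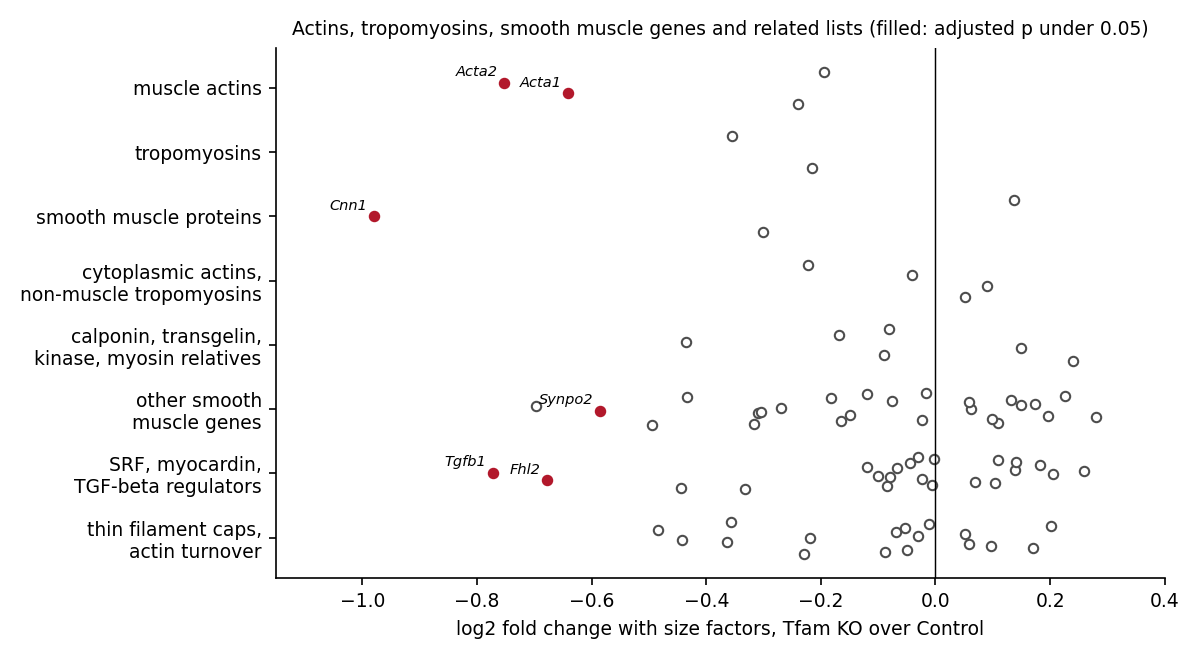
Log2 fold changes with size factors, Tfam KO over Control, of the tested genes (points) by list. Filled and named points have an adjusted p under 0.05: 3 of the 9 thin filament and smooth muscle genes, Synpo2, Tgfb1 and Fhl2, all of them lower.

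Markers of the cells that could carry these transcripts were read beside the calls. Of 10 cardiomyocyte markers, from the cells known to carry most Actc1, 1 was higher (Nppa) and 1 lower (Ttn) with size factors. For 5 of these markers every Tfam KO library was below every Control library, and for 1 above, as for 11.6% and 12.5% of all tested genes. The median log2 fold change of the cardiomyocyte markers with size factors was -0.32, beside -0.30 for the 9 genes. With size factors these markers summed to 7520 to 10565 FPKM in Tfam KO hearts and 8074 to 9650 FPKM in Control hearts, with overlap. As deposited the sums were 8813 to 11235 FPKM in Tfam KO hearts and 7988 to 8209 FPKM in Control hearts. On the deposited scale every Tfam KO sum was thus above every Control sum. Of 8 pericyte and mural cell markers 0 were called with size factors. With size factors their sum ran from 60.8 to 65.7 FPKM in Tfam KO hearts, against 66.4 to 69.3 FPKM in Control hearts, without overlap. As deposited the sums overlapped, at 60.6 to 80.8 FPKM in Tfam KO hearts and 57.3 to 67.2 FPKM in Control hearts. With size factors only 1 of the 8 markers had every Tfam KO library below every Control library, and 0 had the opposite order. Of 10 fibroblast, 8 epicardial and 8 endothelial markers 0 were called with size factors, and their sums overlapped between groups. Their median log2 fold changes with size factors were 0.21, 0.01 and -0.08 in that order. Every Tfam KO library was above every Control library for 2 fibroblast, 1 epicardial and 1 endothelial marker, and below for 1 fibroblast marker. Of 10 skeletal muscle markers, which bear on Acta1, only Ckm, also a cardiac gene, reached a mean of 1 FPKM, Myf5 and Myf6 were at 0 in all 6 libraries, and Myog was at most 0.269 FPKM in Tfam KO and 0.485 FPKM in Control libraries. Ckm was lower as deposited (log2 fold change -0.69, adjusted p = 0.0380, limma) and missed the threshold with size factors at a larger decrease, with groups that overlapped (log2 fold change -1.01, adjusted p = 0.273). Of 10 red blood cell markers 6 were tested and 0 called on either scale. As deposited, higher calls among the markers were Nppa, Pdgfrb of the mural list, Postn, Lum and Pdgfra of the fibroblast list and Emcn of the endothelial list. Whether the proportion of mural cells or cardiomyocytes has a part in the lower Acta2, Acta1 and Cnn1 was not tested.

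For the 3 genes called with size factors, the genes most like them were those with the smallest root mean square difference of centred log2 values over the 6 libraries. The 9 tested genes were left out of this search, so they could not be found as matches of each other. For Acta1 these were Ube2c at 0.0456, Arhgap17 at 0.0507 and 2700081O15Rik at 0.0631. For Acta2 they were Trib2 at 0.0696, Mtus2 at 0.0748 and Fbxl22 at 0.0837. For Cnn1 they were Rpl27a at 0.123, 2310033P09Rik at 0.130 and Cdkn1c at 0.138, so the closest match was looser for Cnn1 than for both actins. None of these 9 matches was a gene of the related contractile lists above.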

How the data were processed

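Each library had a deposited table of gene symbols with 1 value per gene, log2(FPKM + 1), made by the authors. The unit follows from the deposited file names and values. Base 2 was inferred because 79 to 112 genes of a library then gave the same total of reads. The natural log gave 2 to 3 such genes and base 10 gave 7 to 12. Tools named in the submitters' processing notes are TopHat2 2.0.7, HTSeq 0.5.3 and CASAVA 1.8.2, and the build named is mm9. The strand, annotation and FPKM computation are not given in the sources used here. Whole reads were recovered for all 17876 genes above 0 (within 0.0001 read).

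The 10 genes, lists and ratios were chosen with earlier results of these data known. The 10807 genes whose mean reached 1 FPKM were fitted with limma 3.58.1 (R 4.3.3), group as only term, variance trend, two-sided, Benjamini-Hochberg over all genes, threshold 0.05. The pseudocount of 1 in the deposited log2 values understates fold changes of low genes. Alternatives were median-of-ratios size factors (14083 genes), limma-voom on recovered reads, no filter, at least 5 FPKM, pseudocount 0.1, a replicate block and each library left out. Named genes were Tfam, the 10 genes, genes of the related lists called on both scales (none) or behind a count of 5 or fewer calls, and the 3 genes most like each called gene. Genes behind counts of library order were named only in part. Srf, Myocd, Actb, Ckm and Myog were named after their values were seen. Promoters came from RefSeq and transcripts from GENCODE, on GRCm38, not mm9.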

Additional observations from a re-analysis of the deposited data

How the results depend on the processing

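The count of the 9 tested genes called lower, 0 as deposited, was 3 with size factors, with limma-voom and with a replicate block plus size factors, 2 with size factors and no filter (added after seeing the data), 1 with at least 5 FPKM and 1 with a replicate block (Cnn1 in both, adjusted p = 0.00527 with the block), and 0 to 3 with a library left out, over both scales. No setting called any of the 9 higher.

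Of all genes, 224 were higher with size factors, 145 with no filter, 2083 with a replicate block, 287 with block and size factors, 291 with limma-voom, 169 with size factors and no filter, and 138 to 2273 with a library left out (the highest as deposited without Tfam KO replicate 2), beside 671. Lower were 270 with size factors, 22 with no filter, 74 with at least 5 FPKM, 241 with a replicate block, 394 with block and size factors, 439 with limma-voom and 52 to 341 with a library left out, beside 125.

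Whether the replicate numbers pair the libraries was not settled. Same-numbered libraries' deviations correlated at 0.36, 0.07 and 0.16 with size factors, and 4 of 6 libraries correlated best with their own number. This is a hint of pairing from the data only, and the main fit held no replicate term.

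Signs turned round for 5 genes without a call. With size factors, alone, with a block or with no filter, log2 fold changes were -0.24 for Actc1, -0.19 for Actg2, -0.22 for Tpm1 and -0.30 for Tagln, and with limma-voom -0.24, -0.25, -0.22 and -0.32 in that order. With a library left out they ran over -0.41 to 0.20 for Actc1, -0.53 to 0.26 for Actg2, -0.38 to 0.22 for Tpm1, -0.52 to 0.33 for Tagln and -0.45 to 0.0089 for Tpm2. The cause was not tested. Depth limits Actg2 and Myh11.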
